A study of Homo sapiens with 2 samples.

Results

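Cluster 10 was the smallest of the 11 clusters into which the authors divided 20656 human adipose-derived mesenchymal stem cells, and it carried genes of mural cells, the smooth muscle cells and pericytes that wrap blood vessels. Its members are all cells with that number in the cluster column of the deposited cell table, 146 cells in all. They were 33 of the 8101 cells of the untreated library (0.407%, exact 95% interval 0.281 to 0.572%) and 113 of the 12555 cells of the TGFB1 library (0.900%, 0.742 to 1.08%). The cells were a commercial preparation, grown on plates until nearly confluent and starved overnight in both arms. The TGFB1 arm was then given that ligand, transforming growth factor beta 1, at 10 ng/mL for 24 h, and the untreated arm was not. The series addresses progenitor cells and interleukin 11 in melanoma stroma, and these cells were assayed alone, after trypsin and freezing, by 10x single-cell RNA sequencing. The labels name no donors or separate cultures. Each condition is 1 library, so no test of the treatment was possible and no p-value was computed. Intervals are exact 95% intervals that cover counting error only. The clusters were made from these same genes, so every ratio of cluster 10 to other cells describes the cluster and tests nothing.

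Mural cells contract through smooth muscle actin and myosin, whose genes are switched on by serum response factor together with its partner myocardin. That factor binds a short AT-rich element, the CArG box. NOTCH3 is the Notch receptor typical of mural cells, and it receives its signal from Jagged ligands on neighbouring cells. Pericytes share a basement membrane with the endothelium, built of type IV collagen, laminin, nidogen and perlecan. In adipose tissue the vessel wall is also a known niche of adipocyte precursors, and TGFB1 is a classical inducer of smooth muscle genes in mesenchymal cells.

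Promoter sequences are shown for the contractile genes ACTG2 and MYLK and for DMD, all with higher levels in cluster 10 and a CArG box near a transcription start. The shared start region of COL4A1 and COL4A2, a gene pair that was higher together, is shown as well. They come from RefSeq on GRCh38.p14 and run from 250 bases before to 50 bases after a transcription start. Each is written 5′ to 3′ on the strand of the named gene. In the first 3, capitals mark the CArG boxes. ACTG2 (chr2:73892758-73893057, plus strand) has 2 boxes, beginning 110 and 73 bases before the start. MYLK (chr3:123620499-123620798, minus strand) has 1 box beginning 94 bases before its 1 start in the table. That start lies inside the gene, which spans chr3:123610049-123884331 in GENCODE 29, and far from its 5′ end. DMD (chrX:33211500-33211799, minus strand) has 1 box beginning 98 bases before 1 of its 7 starts in the table. In the COL4A2 sequence (chr13:110307034-110307333, plus strand), capitals mark the 126 bases that separate its start at 110307284 from the start of COL4A1 at 110307157 on the opposite strand.
ACTG2: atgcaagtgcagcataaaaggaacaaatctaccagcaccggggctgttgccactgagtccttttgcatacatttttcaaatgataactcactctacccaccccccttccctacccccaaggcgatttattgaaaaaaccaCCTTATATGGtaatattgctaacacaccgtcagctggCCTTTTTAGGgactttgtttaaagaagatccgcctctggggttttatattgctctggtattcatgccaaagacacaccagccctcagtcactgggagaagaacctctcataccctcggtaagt
MYLK: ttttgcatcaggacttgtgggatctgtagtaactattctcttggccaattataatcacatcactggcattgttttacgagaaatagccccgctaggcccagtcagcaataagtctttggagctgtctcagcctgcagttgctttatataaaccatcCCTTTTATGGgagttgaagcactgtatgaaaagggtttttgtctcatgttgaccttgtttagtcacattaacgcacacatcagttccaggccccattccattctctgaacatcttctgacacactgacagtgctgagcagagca
DMD: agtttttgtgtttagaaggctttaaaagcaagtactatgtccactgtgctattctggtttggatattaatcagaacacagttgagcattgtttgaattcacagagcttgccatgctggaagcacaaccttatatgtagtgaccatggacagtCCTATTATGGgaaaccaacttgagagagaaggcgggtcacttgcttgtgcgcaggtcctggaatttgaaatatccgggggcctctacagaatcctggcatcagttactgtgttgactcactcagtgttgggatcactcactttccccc
COL4A2: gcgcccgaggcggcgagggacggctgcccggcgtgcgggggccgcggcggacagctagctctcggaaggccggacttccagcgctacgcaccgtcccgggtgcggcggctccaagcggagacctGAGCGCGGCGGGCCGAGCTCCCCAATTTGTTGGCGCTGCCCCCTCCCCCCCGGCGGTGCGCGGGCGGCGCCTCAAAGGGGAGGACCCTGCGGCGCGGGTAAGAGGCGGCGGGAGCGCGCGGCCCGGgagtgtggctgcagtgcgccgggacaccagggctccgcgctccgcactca
Of 19 mural genes looked for, 14 had a promoter in the table, and 4 of these had a CArG box, SMTN being the other. These 14 genes have 29 starts in the table, 4 of which (13.8%) held a box. Over all 35116 starts in the table, with windows of this length, 454 (1.29%) held one on either strand, a motif that reads alike on both. A match is a description of letters and not a bound site.

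Cluster 10 was not in a single place in the authors' embedding. All 33 untreated members and 31 of the 113 TGFB1 members lay below 0 on the first UMAP axis, most of them in a group of their own between the untreated and the TGFB1 cells. The other 82 TGFB1 members lay above 0, in patches among the other TGFB1 cells. No TGFB1 member lay between -1.03 and 1.27 on that axis. This division was made after the values were seen, so counts for the TGFB1 library are given for all 113 members and, where they differ, for the 31 alone. The division follows the same genes that made the clusters, and what sets the 82 cells apart from the 31 was not tested.

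**Figure D1:**
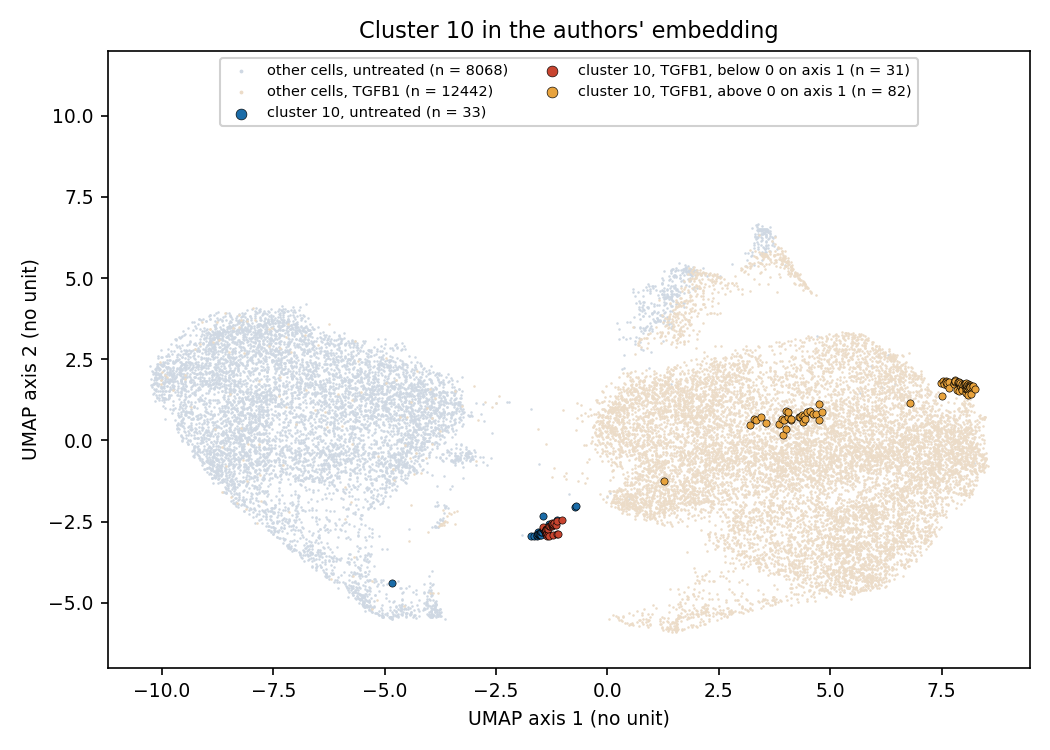
The authors' embedding of all 20656 cells, with both UMAP axes in arbitrary units. Blue points are the 33 untreated cells of cluster 10, red points the 31 TGFB1 cells below 0 on the first axis, orange points the 82 TGFB1 cells above 0, and pale points the other cells of each library. Blue and red points share 1 small group, apart from 1 blue point among the untreated cells, while orange points lie among the other TGFB1 cells.

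Depth differed between these sets. The untreated members held 740256 UMIs with a median of 22493 per cell (770 to 50899), against 19239 in the other untreated cells. The TGFB1 members held 1314837 UMIs with a median of 9865 per cell (1353 to 38900), against 15205 in the other TGFB1 cells. Within them the median was 14762 in the 31 cells and 8937 in the 82 cells. A count of 0 allows up to 3 UMIs, or 4.05 CPM (UMIs of a gene per 1e6 UMIs of the summed cells) in the untreated members and 2.28 CPM in the TGFB1 members. The libraries shared 18 cell barcodes, 2 of them in cells of cluster 10. No doublet caller was run, and 5 of the 33 untreated members (15.2%) were above the 95th percentile of UMIs in their library, against 1 of the 113 TGFB1 members. Without these deep cells, 351 values of the genes named stayed within their counting interval and 80 moved outside it, none reversed, and the 41 list medians recomputed kept their call. Without the shared barcodes all 431 gene values and 41 list medians did so. The part of doublets in the results was not tested.

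The marker genes were found unevenly in the members, MGP and ACTA2 in most and NOTCH3, MYH11, ACTG2 and RGS5 in fewer. They are the cluster's own markers, so their shares describe it and do not test its label. The 6 genes that mark the cluster were MGP (matrix Gla protein, an inhibitor of calcification, chr12:14881181-14885926, minus strand), ACTA2 (smooth muscle alpha actin, chr10:88935074-88991339, minus strand), MYH11 (the smooth muscle myosin heavy chain, chr16:15703172-15857033, minus strand), ACTG2 (smooth muscle gamma actin, chr2:73892314-73919865, plus strand), NOTCH3 (chr19:15159038-15200981, minus strand) and RGS5 (a regulator of G protein signalling typical of pericytes, chr1:163111121-163321791, minus strand), in GENCODE 29 positions on GRCh38. After each cell was thinned to 7500 UMIs, 57.7% of the 26 untreated members deep enough and 48.8% of the 84 TGFB1 members showed 3 or more of the 6. Among the other cells 0.0656% and 0.238% did so. Without thinning these shares were 72.7% and 57.5% in the cluster, against 0.595% and 0.900% outside it.

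MGP was found in most members and in few other cells. Per 10000 UMIs of a cell, the untreated members ranged from 0 to 175 with a median of 31.3, and the 31 TGFB1 members from 0 to 177 with a median of 15.4. In the 82 cells the median was 3.78 and the highest 20.7, so they overlapped only the lower part of the other range. At 7500 UMIs, 88.5% of the untreated and 92.9% of the TGFB1 members had an MGP UMI (84.8% and 93.8% unthinned). In the other cells these shares were 1.26% and 2.28% (2.53% and 4.96% unthinned). Summed MGP was 4439 CPM in untreated members and 6.06 CPM in the other untreated cells, 732-fold higher (682 to 786). In the TGFB1 library it was 2142 CPM in the 31 cells, 468 in the 82 and 4.87 in the others, 235-fold higher (217 to 254) over all 113 members.

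MYH11 and ACTG2, which mark differentiated smooth muscle, were concentrated in few cells. MYH11 ran from 0 to 13 UMIs per cell in the untreated members, with 18 of 33 cells at 0, and from 0 to 30 in the 31 TGFB1 cells, with 12 at 0. In the 82 cells the highest count was 3 and 53 cells were at 0. Cells with 10 or more MYH11 UMIs numbered 1 of 33 untreated and 8 of the 31 TGFB1 members. These 8 held 86.5% of the MYH11 UMIs and 82.9% of the ACTG2 UMIs of the 31, but 12.4% of their MGP UMIs. The cutoff was not scaled to depth, and the 8 cells were chosen by MYH11 itself. Per 10000 UMIs of a cell, MYH11 had a median of 0 and an upper quartile of 1.17 in the untreated members. In the 31 these were 0.838 and 4.40. The highest cell went the other way, at 39.0 in the untreated members, on 3 UMIs, and 24.3 in the 31. MYH11 stood at 71.6 CPM in untreated members, 279 in the 31 and 52.2 in the 82, against 0.826 and 0.838 in the other cells. ACTG2 stood at 16.2, 77.4 and 5.10 CPM, against 0.119 and 0.101. Only 9 of 113 TGFB1 members had an ACTG2 UMI (7.96%, 7.14% thinned), against 0.129% of the other TGFB1 cells (0.0216% thinned).

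ACTA2 was found in most cells of the TGFB1 library and set the cluster apart mainly without treatment. At 7500 UMIs, 92.3% of untreated and 100% of TGFB1 members had an ACTA2 UMI, against 45.0% and 89.9% of the other cells (68.9% and 94.4% unthinned). Untreated members had 1 to 269 UMIs with a median of 43, and the 31 TGFB1 members 4 to 368 with a median of 126. The level was 3569 CPM in untreated members and 187 in the other untreated cells, 19.1-fold higher (18.4 to 19.9). With TGFB1 it was 7696, 2466 and 1249 CPM in the 31, the 82 and the other cells, 3.66-fold higher (3.57 to 3.76) over all 113 members and 6.16-fold higher (5.97 to 6.35) in the 31. NOTCH3 had at most 6 UMIs in any member. It was found at 55.4 CPM in untreated members, 58.5 in the 31 and 12.7 in the 82, against 1.33 and 2.65 outside. At 7500 UMIs, 50% of untreated and 17.9% of TGFB1 members had a NOTCH3 UMI (63.6% and 22.1% unthinned), against 1.01% and 1.74% of the other cells (2.59% and 4.02% unthinned). The 2 TGFB1 sets differed, with 15 of the 31 cells and 73 of the 82 at 0 unthinned.

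RGS5 was seen in 5 of the 33 untreated members, 1 of which held 50% of its 42 UMIs, and in 15 of the 113 TGFB1 members. Thinned shares were 15.4% and 7.14%, against 2.80% and 1.72% of the other cells (unthinned 15.2% and 13.3%, against 6.58% and 3.62%). In the 31 TGFB1 cells RGS5 gave 3 UMIs, a ratio to the other TGFB1 cells of 2.15 (0.441 to 6.30).

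**Figure D2:**
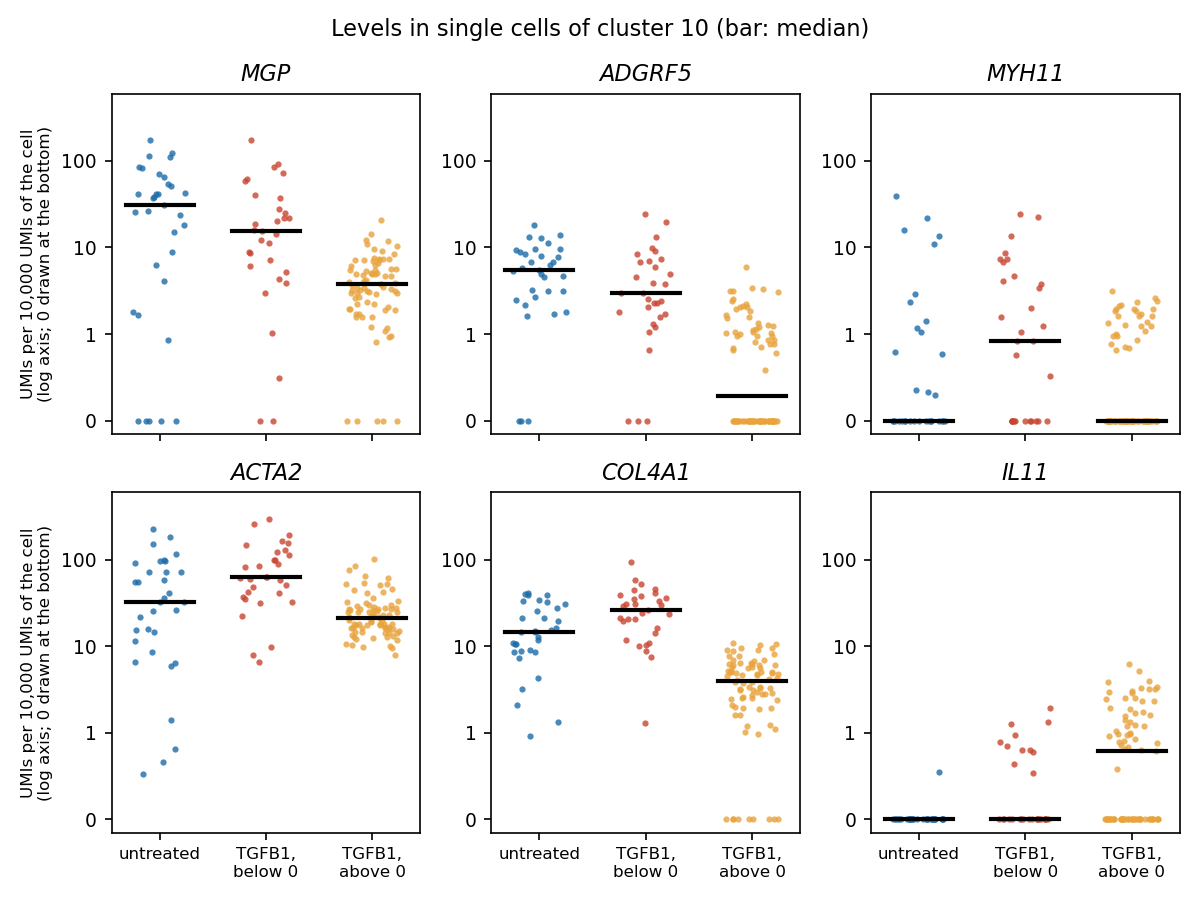
Levels of 6 genes in single cells of cluster 10, in UMIs per 10000 UMIs of the cell on a log axis, with cells at 0 drawn at the bottom and a bar at the median. Columns are the 33 untreated cells, the 31 TGFB1 cells below 0 on the first UMAP axis and the 82 above 0. MGP, ADGRF5 and COL4A1 are lower in the third column, MYH11 is at 0 in the median untreated cell, and IL11 has a UMI in 1 untreated cell.

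Within the untreated library, 387 of 7060 genes at 20 CPM or more in either set of cells were at least 2-fold higher in cluster 10 than in the other cells (5.48%) and 350 at least 2-fold lower (4.96%). In the TGFB1 library 161 of 6548 were higher (2.46%) and 27 lower (0.412%) over all 113 members. For the 31 cells alone 380 of 6765 were higher (5.62%) and 363 lower (5.37%), and for the 82 cells 124 of 6645 were higher (1.87%) and 35 lower (0.527%). These comparisons draw on different cells in each library. The untreated members and the 31 TGFB1 cells shared 199 of the higher genes, 51.4% of the first list and 52.4% of the second. They shared 147 of the lower ones, 42.0% and 40.5%. Over all 113 TGFB1 members the shared higher genes numbered 118, which is 30.5% of the untreated list and 73.3% of the TGFB1 list. The median log2 ratio over all genes was -0.03, 0.01 and -0.01 in these 3 comparisons. Scaling by trimmed means moved every log2 ratio of the 113 members to the other TGFB1 cells by -0.13, and those of the other comparisons by less.

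**Figure D3:**
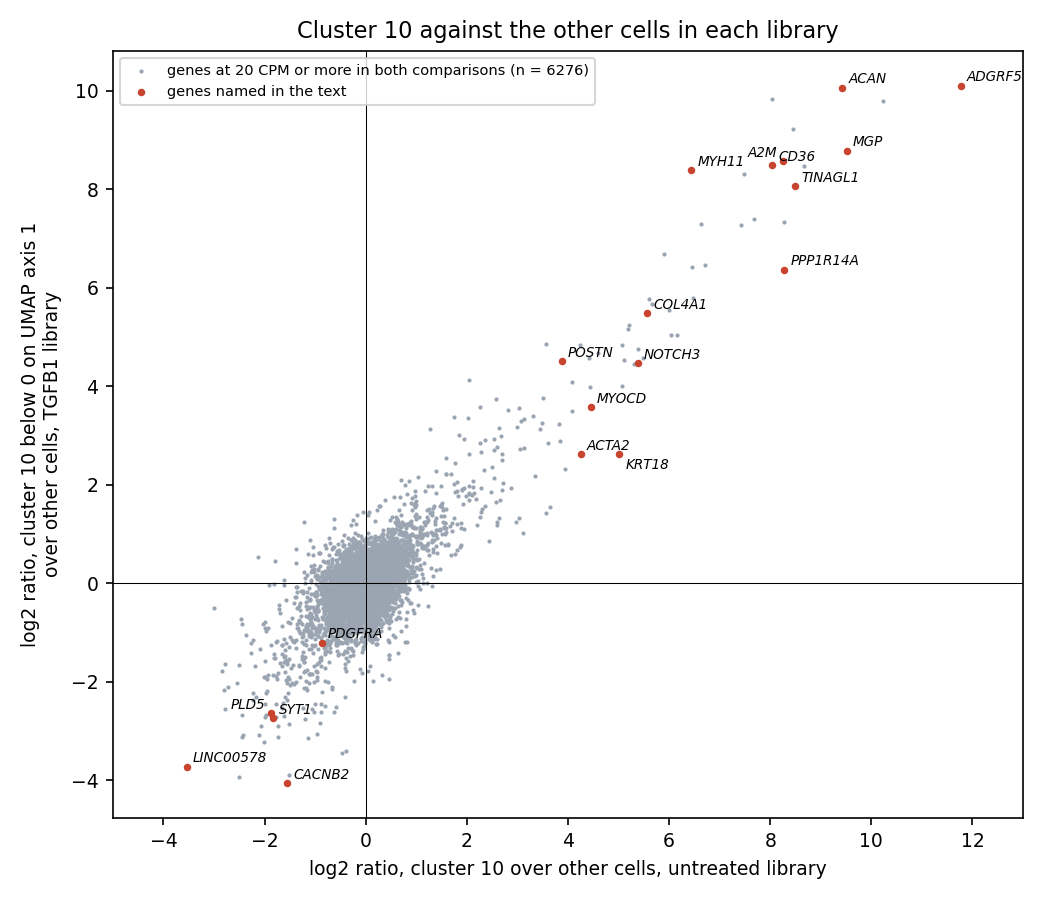
Log2 ratio of cluster 10 to the other cells in the untreated library (horizontal) and of the 31 TGFB1 cells to the other cells in the TGFB1 library (vertical), 1 point per gene at 20 CPM or more in both comparisons. Red points are genes named in the text. MGP, ADGRF5, CD36 and MYH11 are far to the upper right, and LINC00578, CACNB2 and SYT1 to the lower left.

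The genes with the highest ratios in both libraries formed a mixed group of surface proteins, matrix genes and contractile regulators. ADGRF5 (an adhesion G protein-coupled receptor, chr6:46852512-46954943, minus strand) led the list. Per cell, it had 0 to 64 UMIs in the untreated members with a median of 10, and 0 to 52 in the 31 TGFB1 cells with a median of 5, while 41 of the 82 cells were at 0. It stood at 685 CPM in untreated members and 0.196 in the other untreated cells, and at 493, 82.8 and 0.448 in the 31, the 82 and the other TGFB1 cells. The ratios were 3492 times (2455 to 5129) without and 554 times (438 to 705) with TGFB1, the latter over all 113 members. For the 31 cells the ratio was 1100.0.

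CD36, the fatty acid receptor, was at 1123 against 4.27 CPM without TGFB1 and at 476, 175 and 1.32 CPM in the 31, the 82 and the other cells with it. TINAGL1, a basement membrane protein, was at 339 against 0.945, and at 364, 103 and 1.37 CPM. ACAN, the aggrecan core protein, was at 216 against 0.315, and at 164, 7.64 and 0.154 CPM. In each of these genes the 82 cells lay between the 31 and the other cells. A2M, a protease inhibitor, showed the same order, at 255, 33.1 and 0.674 CPM, and was at 279.6 CPM in untreated members, where 1 cell held 30.0% of the UMIs. SLC24A3, a calcium exchanger, was 1202 times (673 to 2304) the level of the other cells in the untreated and 449 times (308 to 668) in the TGFB1 library. EFHD1, a mitochondrial calcium-binding protein, was 351 times (225 to 553) and 282 times (186 to 434) that level, and RARB, a retinoic acid receptor, 99.7 times (76.8 to 128) and 74.7 times (56.3 to 98.3). SRGN, which codes for the proteoglycan serglycin, was 50.3 times (44.7 to 56.5) and 24.2 times (21.3 to 27.4) it. The ratios were higher in the 31 cells alone, 887 for SLC24A3, 593 for EFHD1, 157 for RARB and 51.0 for SRGN. The 20 genes of this kind also held CDH13, SCUBE3, NRXN3 and LINC01592, with ratios of 36.5, 36.7, 65.5 and 41.6 in the untreated library and 19.3, 17.0, 16.2 and 14.4 in the TGFB1 library (35.7, 37.8, 32.9 and 27.2 in the 31 cells).

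Smooth muscle contractile genes were higher as a group. Of 24 measured of the 30 listed, 17 were 1.5-fold or more higher in the untreated members and 0 lower, with a median log2 ratio of 1.17, where 11.4% of all genes were that much higher and 12.2% lower. Over all 113 TGFB1 members it was 11 of 26 higher and 0 lower, median 0.39, where 5.97% of all genes were higher and 3.33% lower. In the 31 cells it was 17 of 28 higher and 0 lower, median 0.71, where 12.9% of all genes were higher and 13% lower. PPP1R14A, an inhibitor of myosin phosphatase, had the highest ratio of the list in the untreated library, 309 times (269 to 356), at 657 against 2.12 CPM, and 41.8 times (38.4 to 45.6) with TGFB1. MYOCD, which encodes myocardin, was at 59.4 against 2.72 CPM without TGFB1 and at 226, 48.4 and 19.1 in the 31, the 82 and the other cells with it. MYLK, the gene of myosin light chain kinase, was 2.76 times (2.52 to 3.03) and 2.03 times (1.90 to 2.17) that of the other cells in the untreated and TGFB1 libraries. Counts were per gene, so they do not tell whether the internal MYLK start printed above was used. DMD, which encodes dystrophin and is not on the contractile list, was 204 times (167 to 248) and 86.7 times (73.9 to 101). Their ratios in the 31 cells were 82.6 for PPP1R14A, 2.95 for MYLK and 169 for DMD.

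Abundant contractile genes were uneven. TAGLN, the actin-binding transgelin, was at 6530.2 against 4963 CPM without and 8393 against 8587 with TGFB1. TPM2, a tropomyosin, was at 4134 against 3508 and 5446 against 5551. Both were less than 1.5-fold apart in each library. CALD1, the actin-binding caldesmon, was also abundant outside the cluster but was 3.82-fold higher (3.72 to 3.93) in the untreated and 1.61-fold higher (1.58 to 1.64) in the TGFB1 members, and 2.16-fold higher (2.10 to 2.22) in the 31. DES, the muscle intermediate filament desmin, gave 1 UMI in the untreated and 3 in the TGFB1 members.

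**Figure D4:**
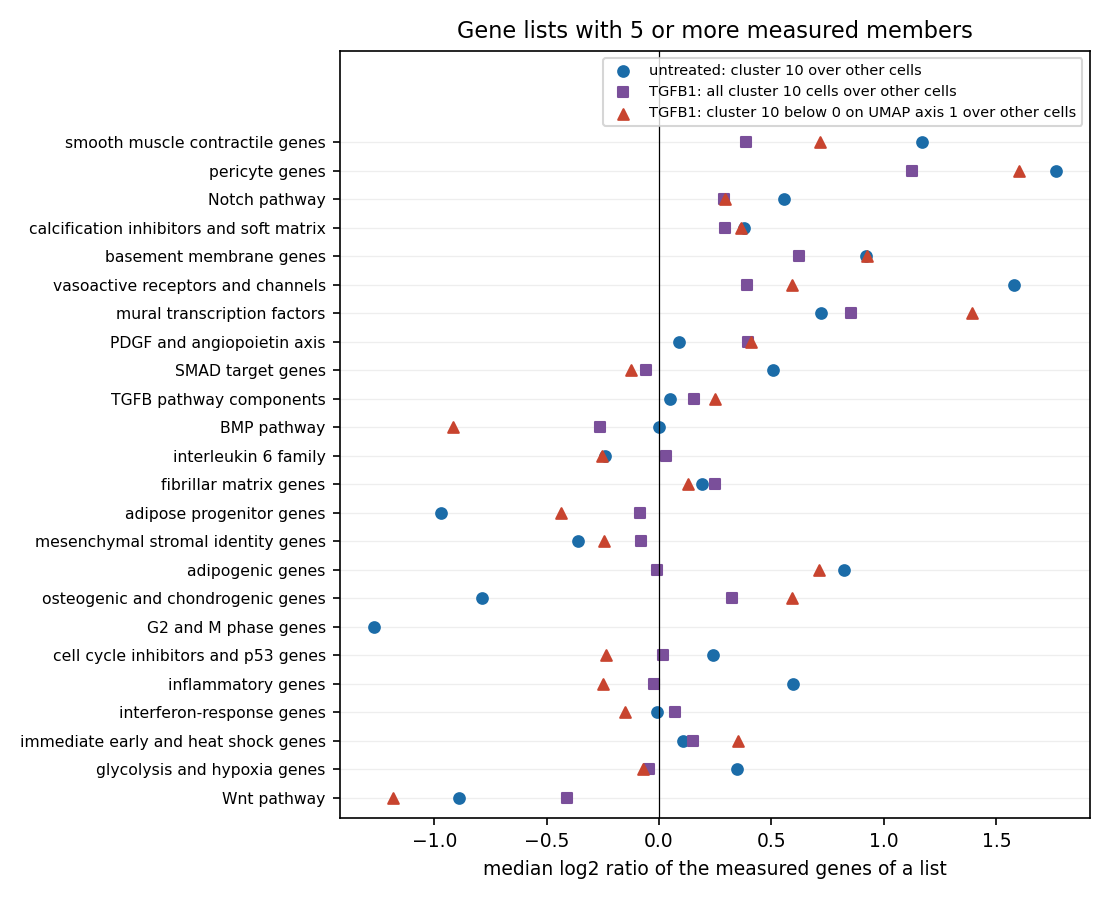
Median log2 ratio of the measured members of each gene list, for lists with 5 or more measured members in the untreated library, 1 row per list. Circles are untreated members over other untreated cells, squares all 113 TGFB1 members over other TGFB1 cells, and triangles the 31 TGFB1 cells below 0 on the first UMAP axis. Contractile, pericyte, basement membrane and mural transcription factor lists are to the right of 0 in all 3 comparisons, and the Wnt and adipose progenitor lists to the left.

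Pericyte genes were partly present. Of the 24 listed, 18 had a UMI in the untreated members and 18 in the 31 TGFB1 cells. COX4I2, HIGD1B, STEAP4, GJA4, GUCY1A1 and GUCY1B1 had none in either set. In the other cells of each library, which hold far more UMIs, 23 had one, all but GJA4. Of 14 measured of 24, 11 were higher in the untreated members and 2 lower, with a median log2 ratio of 1.76. In the TGFB1 library 8 of 12 were higher and 1 lower, median 1.13. In the 31 cells 11 of 14 were higher and 1 lower, median 1.60. Over all genes, 11.4% were 1.5-fold or more higher and 12.2% lower in the untreated library. These shares were 5.97% and 3.33% in the TGFB1 library, and 12.9% and 13% in the 31 cells. The same shares apply to each list below that is compared with the other cells of its library. NDUFA4L2, a mitochondrial protein typical of pericytes, was at 389 against 4.43 CPM and at 359, 58.6 and 4.17 in the 31, the 82 and the other TGFB1 cells. EBF2, a transcription factor of adipose precursors, was 59.5 times (46.6 to 75.2) and 55.6 times (39.5 to 77.3) that of the other cells in the untreated and TGFB1 libraries. MCAM, the adhesion molecule CD146, was 21.6 times (13.8 to 32.3) and 8.49 times (6.30 to 11.2). Ratios in the 31 cells were 102 for EBF2 and 15.8 for MCAM. PDGFRB, the platelet-derived growth factor receptor of pericytes, was expressed by the other cells too, at 207 against 102 CPM without and 117 against 88.9 with TGFB1. The pericyte channel genes went the other way in the untreated library. KCNJ8 was 2.21-fold lower (1.12 to 5.12) there and ABCC9 1.75-fold lower (1.24 to 2.56). The 1 lower gene in the TGFB1 library was ANPEP, 1.89-fold lower (1.26 to 2.98), also the 1 lower in the 31 cells.

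In the Notch pathway, the receptor NOTCH3, given above, and the ligand JAG1 were higher. JAG1 was at 47.3 against 1.96 CPM without TGFB1, and at 30.2, 2.55 and 1.18 CPM in the 31, the 82 and the other cells with it. The target HES4 was 6.12-fold higher (3.77 to 9.42) in the untreated members and at 8.37 against 10.3 CPM in the TGFB1 library. HEY1 gave 3 UMIs in untreated and 2 in TGFB1 members, and HEYL gave none in either, both classical Notch targets. Of 9 measured genes in the untreated library 3 were higher and 1 lower, the fringe enzyme RFNG. Of 7 in the TGFB1 library 2 were higher, NOTCH3 and NOTCH2, and 0 lower. Of 8 in the 31 cells JAG1 was higher as well, and 1 was lower, ADAM17, which codes for a protease that cleaves Notch (median log2 ratio 0.29).

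Basement membrane genes were led by the pair with the shared start region printed above. COL4A1 had 1 to 75 UMIs per untreated member with a median of 25, and 2 to 146 per cell in the 31 with a median of 40, and no cell of either set was at 0. In the 82 cells the median was 3 and 9 cells were at 0. COL4A1 was 47.3-fold higher (44.2 to 50.6) without TGFB1 and 22.5-fold higher (21.4 to 23.6) with it, and COL4A2 17.0-fold higher (15.6 to 18.5) and 8.85-fold higher (8.28 to 9.45). COL18A1 and COL15A1, which code for collagens of the basement membrane zone, were 8.18-fold and 4.11-fold higher without TGFB1 and 6.13-fold and 4.33-fold with it. Restricted to the 31 cells, COL4A1 was 44.7-fold, COL4A2 17.0-fold and COL18A1 11.8-fold higher. Of 13 measured genes of the list, 8 were higher and 2 lower in the untreated library (median log2 ratio 0.92), and 7 higher and 0 lower in the TGFB1 library (median 0.62). The 31 cells had 9 of 14 higher and 1 lower, LAMA2 (median 0.92). The 2 lower genes in the untreated library were the laminin chains LAMA2, 3.68-fold lower (2.06 to 7.38), and LAMA4, 1.85-fold lower (1.55 to 2.23). POSTN, which codes for the matrix protein periostin, was at 4203 against 286 CPM, and at 4099, 1066 and 181 in the 31, the 82 and the other TGFB1 cells.

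Receptors and channels of vascular tone were mixed. In the untreated library 10 of 18 measured were higher and 5 lower, with a median log2 ratio of 1.58. In the TGFB1 library 6 of 13 were higher and 1 lower (median 0.39), and in the 31 cells 7 of 13 were higher and 3 lower (median 0.59). PDE3A, the phosphodiesterase that breaks down cyclic AMP in smooth muscle, was 105 times (87.8 to 124) and 45.8 times (36.3 to 57.4) that of the other cells in the untreated and TGFB1 libraries, and the cation channel TRPC4 19.0 times (14 to 25.3) and 17.0 times (12.4 to 22.9). Both were further apart in the 31 cells, at ratios of 87.5 and 28.4. EDNRA, the endothelin receptor of smooth muscle, was at 44.6 against 10.9 CPM without TGFB1 and at 7.61 against 11.3 with it. CACNB2, a calcium channel subunit, was lower in both, 2.92-fold lower (2.21 to 3.95) and 1.79-fold lower (1.34 to 2.45), and had 2 UMIs in the 31 cells.

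Among mural transcription factors, 8 of 14 measured were higher and 1 lower in the untreated members (median log2 ratio 0.72), and 6 of 10 higher and 0 lower over the 113 TGFB1 members (median 0.85). The 31 cells had 9 of 13 higher and 0 lower (median 1.39). Besides MYOCD they included FOXC2, a factor of mural development, 9.90-fold higher (6.63 to 14.3) and 5.56-fold higher (3.72 to 7.99), and NR2F2, a nuclear receptor, 6.47-fold higher (5.83 to 7.17) and 3.38-fold higher (2.98 to 3.81). FOXC2 was 10.6-fold and NR2F2 5.68-fold higher in the 31 cells. FOXS1, which is expressed in pericytes, was at 18.9 against 0.0475 CPM and 12.9 against 0.313, on 14 and 17 UMIs.

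Genes of the stromal progenitor state were lower in the untreated members. Of 9 measured adipose progenitor genes, 7 were lower and 1 higher, CD248, with a median log2 ratio of -0.97. In the TGFB1 library 1 of 9 was lower, PDGFRA, and 1 higher, again CD248 (median -0.09), and in the 31 cells 4 of 9 were lower and 1 higher (median -0.44). PDGFRA, the receptor that marks fibroblasts and their progenitors, was 1.83-fold lower (1.45 to 2.33) without and 1.78-fold lower (1.39 to 2.33) with TGFB1. DPP4, a surface marker of early adipose progenitors, was 2.39-fold lower (1.87 to 3.11) and 1.26-fold lower (1.00 to 1.60), and 2.88-fold lower (1.68 to 5.41) in the 31 cells. PI16, another such marker, was at 13.5 against 10.1 CPM and 76.1 against 74.9, and 79.5% of its UMIs in the 31 cells came from 1 cell. Wnt pathway genes had 8 of 12 lower and 2 higher in the untreated library (median -0.89) and 3 of 11 lower and 1 higher in the TGFB1 library (median -0.41). The difference was wider in the 31 cells, with 8 of 11 lower and 1 higher (median -1.18). They included DKK2, a Wnt antagonist, 1.94-fold lower (1.29 to 3.07) and 2.13-fold lower (1.53 to 3.06), and 3.76-fold lower (1.91 to 8.71) in the 31 cells.

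Adipogenic genes were more often higher than lower in the untreated members and in the 31 TGFB1 cells. CD36, given above, had a high ratio, as did ZNF423, a zinc finger factor of preadipocytes. Of 7 measured of 18, 4 were higher and 1 lower in the untreated members (median log2 ratio 0.82). At 50 CPM or more, where 5 were left, that median was -0.42, so it turns with the gene minimum. Over the 113 TGFB1 members 1 of 6 was higher and 0 lower (median -0.01). In the 31 cells 5 of 8 were higher and 1 lower (median 0.71), against 12.9% and 13% of all genes. ZNF423 was at 40.5 against 0.458 CPM without TGFB1, and at 20.8, 1.27 and 0.376 CPM in the 31, the 82 and the other cells with it. PPARG, the master regulator of fat cell formation, was at 37.8 against 21.4 CPM, and at 20.8, 10.2 and 5.90. FABP4, the fatty acid binding protein of adipocytes and capillaries, gave 3 UMIs in the untreated members and 4 in the 31 cells.

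Among components of the TGFB pathway, the receptors differed in direction. ENG, the auxiliary receptor endoglin, was at 226 against 5.71 CPM in the untreated library, and at 160.4, 40.8 and 7.34 CPM in the 31, the 82 and the other TGFB1 cells. TGFBR2, the receptor that binds the ligand first, was at 129.7 against 381 CPM, and at 58.5, 197 and 181. INHBA, which codes for the activin A subunit, was 5.55-fold higher (5.08 to 6.05) in untreated and 2.74-fold higher (2.60 to 2.88) in TGFB1 members. Of 17 measured components 6 were higher and 4 lower without TGFB1 (median log2 ratio 0.05), and of 14 with TGFB1 4 were higher and 0 lower (median 0.15). The 31 cells had 7 of 15 higher and 3 lower (median 0.25), the lower ones being TGFBR2, the follistatin gene FST and the gene of the ligand itself. PDGFA, a ligand of PDGFRA, was 8.73-fold higher (6.40 to 11.6) and 3.55-fold higher (2.82 to 4.41), and 6.68-fold higher (5.12 to 8.57) in the 31. Among stromal identity genes, THY1 (CD90) was 1.54-fold lower (1.39 to 1.71) and NT5E (CD73) 2.18-fold lower (1.78 to 2.69) in untreated members, and over the 113 TGFB1 members their ratios were 0.865 (0.802 to 0.932) and 0.731 (0.617 to 0.859). THY1 was 1.75-fold lower (1.51 to 2.03) and NT5E 1.94-fold lower (1.44 to 2.70) in the 31 cells. Fibrillar matrix genes had small medians, with more genes higher than lower. Without TGFB1 7 of 23 were higher and 2 lower (median 0.19), against 11.4% and 12.2% of all genes. Over the 113 TGFB1 members 4 of 21 were higher and 0 lower (median 0.25), against 5.97% and 3.33%. POSTN, given above, was among the higher genes in each library. Restricted to the 31 cells, 7 of 22 were higher and 4 lower (median 0.13). COL1A1, the main chain of type I collagen, was at 7746 against 6858 CPM and at 11160.3 against 9401.

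Other genes were among the lowest in both libraries. SYT1, the synaptic vesicle calcium sensor, was at 50 against 179 CPM without TGFB1, and at 22.6, 96.8 and 150.4 CPM in the 31, the 82 and the other cells with it. Of the untreated members' SYT1 UMIs 70.3% came from 1 cell. LSAMP, a neural adhesion molecule, was 3.99-fold lower (3.25 to 4.95) and 1.95-fold lower (1.66 to 2.29). S100A4, a calcium-binding protein of fibroblasts, was 2.05-fold lower (1.91 to 2.19) and 1.91-fold lower (1.79 to 2.05), and S100A16 3.56-fold lower (2.81 to 4.58) and 1.83-fold lower (1.62 to 2.08). Others of this kind, PSG5, BMPER, PLD5, NXN, LINC03051, CAMK2N1 and TNIK, were 1.89 to 4.71-fold lower in the untreated library and 1.85 to 2.03-fold lower in the TGFB1 library. These 7 genes were 1.94 to 6.24-fold lower in the 31 cells, where S100A16 was 3.64-fold lower, and LSAMP was at 77.4 against 232 CPM.

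Defining markers of several other cell types that the wells could hold were at or near 0, and keratins were not. Of 17 endothelial genes, 10 were at 0 in the untreated members and 11 in the TGFB1 members, with PECAM1, CDH5, VWF and KDR among them in both, and the summed level was 54.0 CPM against 18.7 in the other untreated cells and 27.4 against 21.1 in the TGFB1 library. Of 16 immune genes 12 and 13 were at 0, and CD68 alone made up most of the summed 20.3 and 9.89 CPM. The skeletal muscle regulators MYOD1, MYF5, MYOG and PAX7 had no UMI in any member. ACTC1, the cardiac actin, was at 21.6 against 15.0 CPM and 138 against 67.2. Of 13 melanocyte and neural crest genes, SOX10, DCT and S100B were at 0 in both sets. Their summed level was 82.4 CPM against 48.7 in the untreated and 36.5 against 18.5 in the TGFB1 library, with MITF, the melanocyte transcription factor, at 43.2 against 46.5 and 21.3 against 15.4 CPM. KRT18, a simple epithelial keratin, was 32.2-fold higher (29.7 to 34.8) in untreated and 3.78-fold higher (3.41 to 4.18) in TGFB1 members, and KRT7 6.08-fold higher (4.94 to 7.41) and 1.76-fold higher (1.28 to 2.35), though 1 cell held 47.5% of the untreated KRT7 UMIs. KRT19, which had the highest level of the list in the other cells, was at 476 against 675 CPM without TGFB1 and 145 against 191 with it, 1.32-fold lower (1.14 to 1.52) over the 113 members. The summed level of the 13 epithelial and mesothelial genes was 1612 against 732 CPM and 489.8 against 297. ERBB3, a receptor of Schwann cells, was 101 times (59.7 to 166) and 18.9 times (9.11 to 35.4) that of the other cells, on 24 and 11 UMIs.

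Cell division genes were at low levels in the cluster. The summed level of 20 genes of G2 and M phase was 165 CPM in untreated members against 446 in the other untreated cells, and 52.5 against 156 in the TGFB1 library. All 10 measured were lower in the untreated members, with a median log2 ratio of -1.27. A MKI67 or TOP2A UMI was found in 4 of 33 untreated members (12.1%, 3.40 to 28.2%) and 6 of 113 TGFB1 members (5.31%, 1.97 to 11.2%). The shares of the other cells, 17.4% and 7.93%, lay within these intervals. These shares are at the unthinned depths given above.

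The clusters with profiles most like cluster 10 were clusters 7 and 0, with Pearson correlations of log2(CPM + 1) of 0.936 and 0.935 across 8049 genes, which are not independent replicates. Cluster 5 followed at 0.934 and cluster 9 at 0.924, so this order rests on small differences. Cluster 0 held 16 untreated cells, and the comparison was made in the TGFB1 library only. There 131 of 6563 genes were at least 2-fold higher in cluster 10 than in clusters 7 and 0 together (2%) and 41 lower (0.625%). The highest were again ADGRF5, ACAN, SLC24A3, A2M, EFHD1, MGP and CD36, with PRELP, at ratios of 146 to 496. The lowest were CACNB2, LINC00578, BMPER, RUNX1T1, NAB1, DKK2, TNIK and SYT1, 2.10 to 2.68-fold lower.

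Between the libraries, inside cluster 10, 410 of 7029 genes were at least 2-fold higher with TGFB1 (5.83%) and 423 lower (6.02%). With the 31 TGFB1 cells in place of the 113, 400 of 7087 were higher (5.64%) and 559 lower (7.89%). These ratios set 33 untreated cells against TGFB1 cells of another depth, and 1 cell could set a value. In the list counts 14.5% of all genes were 1.5-fold or more higher over the 113 members and 15.2% lower, and 14.4% and 18.5% in the 31 cells. Only a library difference is described, since library and treatment cannot be told apart.

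SMAD target genes, which TGFB1 signalling induces, were higher in the TGFB1 members. Of 19 measured, 15 were 1.5-fold or more higher over the 113 members and 0 lower (median log2 ratio 1.20), and 14 and 0 in the 31 cells (median 1.07). PMEPA1, a feedback inhibitor, was at 24.3 CPM in untreated members, 187 in the 31 and 164 in the 82, against 17.0 and 142 in the other cells without and with TGFB1. CDKN2B, a cell cycle inhibitor, was at 47.3, 206 and 332 CPM, against 39.9 and 306. In both genes the 82 cells were near the other TGFB1 cells, while the 31 were higher in PMEPA1 and lower in CDKN2B. Against the other cells of their own library, 7 of 17 SMAD targets were higher and 1 lower in the untreated members (median 0.50), and 1 of 19 higher and 1 lower in the TGFB1 members (median -0.06). The 31 cells had 0 of 19 higher and 3 lower (median -0.13).

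IL11, the secreted ligand of the interleukin 6 family, was lower in the members than in other TGFB1 cells (chr19:55364389-55370463, minus strand). It gave 1 UMI in the 33 untreated members and 96 in the 113 TGFB1 members. Levels were 1.35 CPM in untreated members, 39.6 in the 31, 95.5 in the 82 and 144 in the other TGFB1 cells, so the 113 members were 1.97-fold lower (1.61 to 2.43) than the latter and the 31 3.63-fold lower (2.37 to 5.86). At 7500 UMIs, 45.2% of the 84 members deep enough had an IL11 UMI (34.3 to 56.5%), and 29.6% of 27 in the set of 31 (13.8 to 50.2%), against 52.3% of the other TGFB1 cells. Unthinned, these shares were 47.8%, 35.5% and 64.2%, at median depths of 9865, 14762 and 15205 UMIs. Against the untreated members the ratio was 54.0 times (9.47 to 2157) on that single UMI. IL6 was at 25.7 CPM in untreated members, 56.6 in the 31 and 150.3 in the 82, against 87.1 and 128 in the other cells. Of 7 measured genes of the family, IL11 and IL6 were higher with TGFB1 over the 113 members and 0 lower. Of 7 in the 31 cells the same 2 were higher and 1 was lower, IL6ST. Over the 113 members the family's receptor chains LIFR and IL6ST had ratios of 1.01 (0.444 to 2.46) and 0.850 (0.695 to 1.04), and the kinase JAK2 0.868 (0.506 to 1.52). JAK2 was 1.56-fold higher (1.00 to 2.33) than in the other untreated cells and 1.53-fold higher (1.07 to 2.11) than in the other TGFB1 cells.

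Other genes with the highest TGFB1 ratios in cluster 10 were XYLT1, GPC6, PLD5, TSPAN2, BMP6, GRIK2, CRISPLD2, KIF26B and KIF26B-AS1, at 7.24 to 19.7-fold over the 113 members and 1.71 to 11.9-fold in the 31. KIF26B-AS1 lies antisense to KIF26B, and whether strand was used in the counting was not stated in the sources. TSPAN2, a tetraspanin, was at 16.2 CPM in untreated members, 179 in the 31 and 131 in the 82, against 11.0 and 186 in the other cells. GPC6, a heparan sulfate proteoglycan, was at 13.5, 86.8 and 227 CPM, against 65.4 and 202, and 1 untreated cell held 70.0% of its 10 UMIs. GRIK2, a glutamate receptor, was at 12.2, 20.8 and 149 CPM, against 84.0 and 122, so its higher level rested on the 82 cells.

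Mural genes differed unevenly between the libraries. Of 13 measured pericyte genes 10 were lower with TGFB1 over the 113 members and 1 higher (median log2 ratio -1.06), and of 15 in the 31 cells 7 were lower and 3 higher (median -0.42). Of 27 contractile genes 13 were higher and 3 lower (median 0.40), and of 28 in the 31 cells 17 were higher and 0 lower (median 0.71). Summed over the 30 listed contractile genes, the level was 34541 CPM in untreated members, 44405 in the 113 and 55620 in the 31. It was higher with TGFB1 in the other cells too, at 36515 against 17715 CPM. MGP was 3.89-fold lower (3.65 to 4.13) with TGFB1 over the 113 members and 2.07-fold lower (1.94 to 2.22) in the 31. CD36 was 3.79-fold lower (3.36 to 4.29) and 2.36-fold lower (2.05 to 2.73). MYH11 was 2.01-fold higher (1.47 to 2.78) and 3.90-fold higher (2.83 to 5.45). Both are ratios of summed UMIs, in which deep cells weigh more. Over the 113 members the MYH11 log2 ratio was -1.26 when each cell had equal weight. Per 10000 UMIs of a cell, the MYH11 median was 0 in untreated members and 0.838 in the 31, but the highest values were 39.0 and 24.3. Whether the 3.90-fold value holds with equal weight was not tested. COL4A1 was 2.01-fold higher (1.85 to 2.18) in the 31 cells, while over the 113 members its ratio was 1.01. EDNRA, RGS5 and the prostacyclin receptor gene PTGIR were lower, 5.86-fold lower (2.82 to 13.3), 4.39-fold lower (2.45 to 8.22) and 4.44-fold lower (1.63 to 14), on 10, 17 and 6 UMIs in the TGFB1 members. Of the untreated members' RGS5 UMIs, 85.7% came from 3 cells, so that ratio rests on few cells.

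The 12 genes with the lowest TGFB1 ratios were lower in the 31 cells too. PTX3, a pattern recognition protein of innate immunity, was at 393 CPM in untreated members, 43.4 in the 31 and 52.2 in the 82, against 203 and 14.5 in the other cells. ADM, the vasodilator adrenomedullin, was at 123, 17.0 and 20.4 CPM, against 123 and 11.1, and CLDN11, a tight junction gene, at 174, 26.4 and 26.8, against 275 and 18.8. These 3 were lower in the other TGFB1 cells too. ANKRD1, a muscle ankyrin repeat gene, and ANK3, which codes for ankyrin-G, were far lower in the other cells of both libraries. ANKRD1 was at 100, 18.9 and 11.5 CPM in the 3 sets, against 0.357 and 0.361 outside, and ANK3 at 83.8, 15.1 and 6.37, against 0.184 and 0.217. The retinoic acid hydroxylase CYP26B1 was at 86.5, 17.0 and 0 CPM (up to 3.82 allowed by the depth), against 1.02 and 0.226. LINC03000, COL14A1, TNXB, ADAMTS5, MTSS1 and CCBE1 were 6.51 to 16.8-fold lower over the 113 members, and 1 untreated cell held 56.5% of the LINC03000 UMIs.

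**Figure D5:**
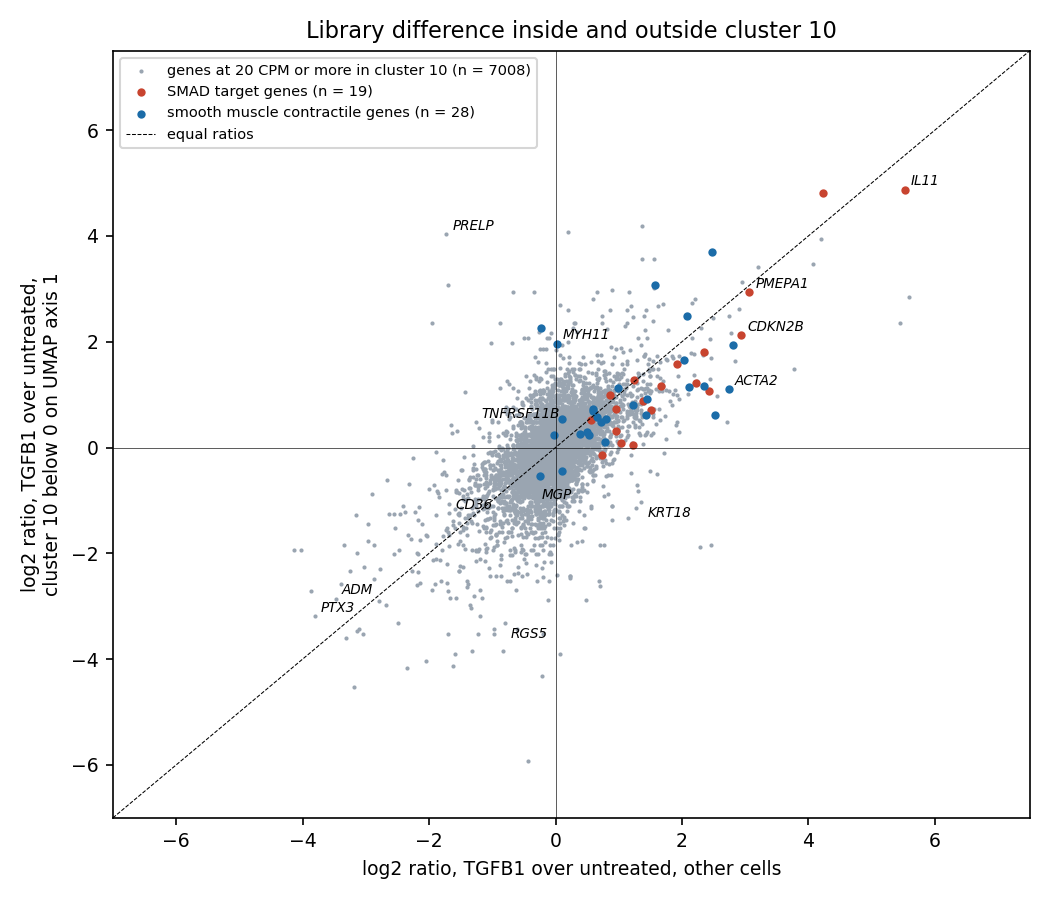
Log2 ratio of the TGFB1 to the untreated library in the other cells (horizontal) and between the 31 TGFB1 and 33 untreated cells of cluster 10 (vertical), 1 point per gene at 20 CPM or more in cluster 10, a count of 0 being set to 3. Red points are SMAD target genes, blue points contractile genes, and the dashed line marks equal ratios. PMEPA1 and IL11 are close to the line, PRELP is far above it and KRT18 far below.

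Genes were also counted where the difference of log2 ratios had an interval that leaves out 0. In 241 of 7376 (3.27%) the ratio of TGFB1 to untreated was at least 2-fold higher in cluster 10 than in the other cells. In 213 (2.89%) that ratio was at least 2-fold lower. With the 31 cells these were 204 of 7509 (2.72%) and 196 (2.61%). PRELP, a leucine-rich proteoglycan of cartilage and basement membranes (chr1:203475828-203491352, plus strand), had the largest difference of the genes named. It was at 12.2 CPM in untreated members, 200.1 in the 31 and 14 in the 82, against 0.672 and 0.202 in the other cells. It was seen in 3 of 33 untreated members, 1 of which held 77.8% of 9 UMIs, and in 19 of the 31 TGFB1 cells, where the top cell held 17.9% of 106. The difference of log2 ratios was 4.52 (3.44 to 5.60). KRT18 went the other way, at 993, 483 and 173 CPM in the 3 sets, against 30.9 and 78.8 outside, with a difference of -3.09 (-3.27 to -2.90) over the 113 members and -2.39 in the 31 cells. ACTA2 was 1.28-fold higher (1.22 to 1.34) with TGFB1 in cluster 10 and 6.69-fold higher (6.61 to 6.76) in the other cells, a difference of -2.38. In the 31 cells ACTA2 was 2.16-fold higher (2.05 to 2.27), a difference of -1.63. PPP1R14A, LINC03000, MTSS1, ANK3, OLFM2 and ANKRD37 had differences of -3.56 to -2.39. TNFRSF11B, the decoy receptor osteoprotegerin, was 1.43-fold higher (1.22 to 1.68) in cluster 10 and 2.40-fold lower (2.38 to 2.43) in the other cells, a difference of 1.78, 1.74 in the 31 cells. SFRP4 and LINC01239 had 1.79 and 2.08, though 1 untreated cell held 57.1% and 61.5% of their UMIs. LINC00578, TMTC2, GRIK2 and KCNQ5 had differences of 1.85 to 2.74, and with the 31 cells these were -0.11, -0.60, 0.22 and 0.64.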

How the data were processed

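Cells of 2 libraries, 1 untreated and 1 given TGFB1, were measured by droplet RNA sequencing. The authors deposited whole-number UMI counts of 38606 genes in 20656 cells. Their cell table gives genes per cell, the percent of mitochondrial counts (at most 5.00%), a cluster number at resolution 0.4 and UMAP coordinates, deposited as a score with no unit. Per the submitters' processing notes the tools were Cell Ranger 9.0.1 and Seurat with GRCh38, no role being stated for each, and no annotation was named in the sources used. Cells were grouped by library and by the deposited cluster number, and counts were summed per group and divided by the group's total to give CPM. The smallest group behind a value had 529860 UMIs, and a count of 0 was read as up to 3. Genes entered a comparison at 20 CPM or more in either group. Ratios have exact conditional binomial 95% intervals, shares exact Clopper-Pearson intervals, and differences of log2 ratios a normal interval from the 4 counts with 0.5 added. All of them cover counting error only. Because each group is 1 library, no test was made, and with 1 library per condition depth, batch and treatment cannot be told apart.

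Cells were thinned to 7500 UMIs for shares. Doublets were kept, and no caller was run. The 30 gene lists, the members and the tests were chosen with earlier results of these data known. Genes were named by a rule: the 6 markers, the 20 highest and 12 lowest in both libraries, the 12 highest and 12 lowest between libraries, the 8 highest and 8 lowest differences of log2 ratios and against the nearest clusters, at 50 CPM or more, and the strongest members of each list. ABCC9, COL1A1, DES, FABP4, FOXS1, HEY1, HEYL, KCNJ8, LAMA4, MYLK, SMTN, TAGLN, TGFBR2, THY1, TPM2 and the markers given at 0 were added after their values were seen. Alternatives were trimmed-mean factors from edgeR 4.0.16 in R 4.3.3, median-of-ratios factors, equal weight for each cell, thinning, gene minimums of 5 and 50 CPM, and leaving out cells with a MKI67 or TOP2A UMI, deep cells or similar clusters. The division at 0 on the first UMAP axis, the removal of shared barcodes and the comparison with clusters 7 and 9 were added after the data were seen. Positions come from GENCODE 29 on GRCh38, where 597 of 600 names were found, and promoters from RefSeq on GRCh38.p14. Computation used Python 3.11.15, numpy 2.4.6, scipy 1.17.1 and pandas 2.3.3, and the ratios and intervals were tested on simulated counts.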

Additional observations from a re-analysis of the deposited data

Results flagged for a closer look

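In 4 genes the library difference inside cluster 10 and that in the other cells had opposite directions, each at least 2-fold. The log2 ratio of TGFB1 to untreated was 2.87 for PRELP in cluster 10 and -1.73 in the other cells, where it gave few counts. It was -1.74 for KRT18 in cluster 10 and 1.35 in the other cells. For OLFM2 the values were -1.48 and 1.31, and for ADGRF5 -1.47 and 1.19. In the 31 cells below 0 on the first UMAP axis the log2 ratios to the untreated members were 4.04 for PRELP, -1.04 for KRT18, -0.83 for OLFM2 and -0.48 for ADGRF5, so the last 2 were less than 2-fold lower there. ADGRF5 rests on 33 UMIs in the other untreated cells, 63.6% of them in 3 cells. With 1 library per condition, the difference between the 2 ratios was not tested, and its cause was not tested.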

How the results depend on the processing

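No paired analysis was possible because each condition is 1 library and the labels give no replicate numbers, and no replicate could be left out. In these counts of genes 2-fold apart, the value for higher comes first and for lower second. For untreated members against other cells (387 and 350), they were 1030 and 890 at 5 CPM, 193 and 153 at 50 CPM, 753 and 606 with equal weight for each cell, and 750 and 750 after thinning to 7500 UMIs. For TGFB1 members against other cells (161 and 27), they were 541 and 239 at 5 CPM, 83 and 3 at 50 CPM, and 380 and 363 with the 31 cells alone, and the lower count was 59 with trimmed-mean factors, 42 with median-of-ratios factors and 60 after thinning. Between libraries in cluster 10 (410 and 423), they were 927 and 1336 at 5 CPM, 200 and 135 at 50 CPM, 663 and 762 with equal weight, and 886 and 881 after thinning. For the difference from the other cells (241 and 213), they were 628 and 590 with equal weight and 108 and 89 at 50 CPM, and the lower count was 391 at 5 CPM and 359 after thinning. Against clusters 7 and 0 (131 and 41), they were 434 and 276 at 5 CPM, 70 and 11 at 50 CPM, and 343 and 453 with the 31 cells, and the lower count was 74 with trimmed-mean factors and 95 after thinning. With clusters 7 and 9 in both libraries as the reference they were 209 and 258.

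Of the 30 lists, those with a median 1.5-fold or more higher in TGFB1 members than in other cells numbered 5, which became 3 with trimmed-mean factors, 3 with median-of-ratios factors, 2 without cells holding a MKI67 or TOP2A UMI, and 9 with the 31 cells, and the lower lists went from 0 to 2 at 5 CPM and 2 with the 31 cells. In untreated members the higher lists went from 9 to 5 at 50 CPM. Between libraries the higher lists went from 3 to 1 at 5 CPM and the lower from 9 to 5 at 50 CPM.

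Directions turned in these values, as log2 ratios. Between libraries MYH11 was -1.26 and ACTG2 -1.48 with equal weight, and ACTG2 was -0.21 after thinning, against 1.01 and 1.08. IL11 in untreated members against other cells was 0.70 after thinning, on 1 UMI. The median of G2 and M phase genes in untreated members was 1.07 without cells holding a MKI67 or TOP2A UMI, where 1 gene was left, and that of adipogenic genes was -0.42 at 50 CPM. With the 31 cells alone, LINC03000 against other TGFB1 cells was -0.63, LINC00578 between libraries -0.66 and RARB 0.051, the differences from the other cells were -0.11 for LINC00578 and -0.60 for TMTC2, and the adipose progenitor median between libraries was -0.43. Apart from the settings that reduce the genes or cells, the cause was not tested. Of the values of genes and shares recomputed, 3782 stayed within their interval, 704 moved outside it and 9 reversed, and of the list medians 390 kept their call, 29 moved and 3 reversed. Depth limits the smallest sets, the 31 TGFB1 cells, where a count of 0 allows 5.66 CPM, and the 33 untreated cells, where it allows 4.05 CPM.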
